A study of Mus musculus with 5 samples.

Results

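The collagen genes are the 44 mouse genes whose symbols join Col, a type number, the letter a and a chain number. They were found by naming each array probe through its RefSeq accession, which gave 64 collagen probes among the 28026 named probes, and 44 genes among the 21154 named genes. Total RNA was measured on 1-colour Agilent SurePrint G3 mouse arrays, 1 array for each of 5 samples. The glioma group held 3 samples of brain tumour at post-natal day 150 from a mouse model based on MADM, which stands for mosaic analysis with double markers, a method in which recombination between homologous chromosomes leaves sparse, colour-marked mutant cells. The normal brain group held 2 samples of brain, also from post-natal day 150. The mutated genes, the Cre driver, the strain and the brain region are not given in the sources used here. Nor do the labels say that the replicates came from separate animals, so p-values measure only the spread between these samples, which may be technical.

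Collagens are secreted or membrane-bound proteins built of 3 chains wound into a triple helix. Fibrillar types form the cross-striated fibrils of skin, bone and tendon, FACITs decorate those fibrils, type IV forms the mesh of basement membranes, and type VI forms beaded filaments beside them. In normal brain, fibrillar collagen lies mostly in the meninges and around large vessels, while type IV lines every capillary. The neural tissue itself holds little collagen of either kind. Whether the collagen genes of these gliomas differ from those of normal brain, class by class, is the comparison taken up here.

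Values are log2 processed signals minus the array's 75th percentile, so 0 is a signal at that percentile and 1 unit is a 2-fold step. A probe was counted as detected on an array where the scanner software flagged it well above background. Each gene was read from its brightest probe and tested where that probe was detected on at least 2 arrays. A gene was called where limma's Benjamini-Hochberg adjusted p over all 16891 tested genes was under 0.05. The 5 arrays each carried 59305 spots, with 61.45% to 70.3% of them well above background and none saturated. Their number limits the precision. The arrays lay on 1 slide in 1 scan, the gliomas in 1 row and the normal brain samples in another, so slide row and group cannot be told apart. Over all probes the gliomas correlated at 0.976 to 0.985 with each other, the normal brain arrays at 0.996, and arrays of different groups at 0.896 to 0.912. Xist was detected on the array of glioma 3 alone, and the Y-linked Ddx3y and Eif2s3y on the other 4 arrays. Tumour and brain pieces are mixtures, so fewer cells of a type and less RNA per cell cannot be told apart in any value below.

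The promoters of 6 collagen genes with large changes are shown first, because the values turn on these genes. Each is 300 bases, from 250 before to 50 after the start of the gene, 5′ to 3′ on the gene's strand, from RefSeq on build GRCm38.p6. Capitals mark matches on either strand to the GC box GGGCGG and the CCAAT box, a pair of short motifs common in promoters. Col20a1 (chr2:180986285-180986584, plus strand), Col5a3 (chr9:20815018-20815317, minus strand) and Col16a1 (chr4:130047590-130047889, plus strand) were the largest rises. Col8a2 (chr4:126286544-126286843, plus strand), Col8a1 (chr16:57754688-57754987, minus strand) and Col23a1 (chr11:51289670-51289969, plus strand) were lower in glioma.

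Col20a1: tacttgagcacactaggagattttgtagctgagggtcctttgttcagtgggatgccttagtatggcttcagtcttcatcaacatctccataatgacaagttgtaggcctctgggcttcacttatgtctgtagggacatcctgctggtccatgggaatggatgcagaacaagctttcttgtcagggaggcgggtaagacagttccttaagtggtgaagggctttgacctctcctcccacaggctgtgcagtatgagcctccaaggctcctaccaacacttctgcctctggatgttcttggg
Col5a3: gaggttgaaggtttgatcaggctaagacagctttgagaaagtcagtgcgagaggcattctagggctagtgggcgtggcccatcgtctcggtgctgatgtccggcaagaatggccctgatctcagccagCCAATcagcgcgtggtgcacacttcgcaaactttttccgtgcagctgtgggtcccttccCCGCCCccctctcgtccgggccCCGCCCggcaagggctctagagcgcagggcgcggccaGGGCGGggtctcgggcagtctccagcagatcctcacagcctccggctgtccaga
Col16a1: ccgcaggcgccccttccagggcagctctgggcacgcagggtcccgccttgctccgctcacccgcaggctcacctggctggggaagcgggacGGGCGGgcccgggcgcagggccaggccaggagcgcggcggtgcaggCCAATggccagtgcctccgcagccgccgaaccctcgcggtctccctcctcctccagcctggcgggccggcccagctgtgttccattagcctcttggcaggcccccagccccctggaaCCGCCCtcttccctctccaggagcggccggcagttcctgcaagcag
Col8a2: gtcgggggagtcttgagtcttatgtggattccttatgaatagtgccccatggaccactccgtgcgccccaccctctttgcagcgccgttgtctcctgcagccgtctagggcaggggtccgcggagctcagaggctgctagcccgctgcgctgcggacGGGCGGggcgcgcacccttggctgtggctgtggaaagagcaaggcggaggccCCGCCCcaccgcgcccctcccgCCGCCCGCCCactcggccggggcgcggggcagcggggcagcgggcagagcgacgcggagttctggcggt
Col8a1: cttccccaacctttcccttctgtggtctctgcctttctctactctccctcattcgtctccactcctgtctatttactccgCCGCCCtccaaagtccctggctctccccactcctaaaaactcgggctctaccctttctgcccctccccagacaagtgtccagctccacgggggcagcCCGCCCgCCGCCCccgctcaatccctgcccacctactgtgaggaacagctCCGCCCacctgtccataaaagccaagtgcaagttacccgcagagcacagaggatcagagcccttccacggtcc
Col23a1: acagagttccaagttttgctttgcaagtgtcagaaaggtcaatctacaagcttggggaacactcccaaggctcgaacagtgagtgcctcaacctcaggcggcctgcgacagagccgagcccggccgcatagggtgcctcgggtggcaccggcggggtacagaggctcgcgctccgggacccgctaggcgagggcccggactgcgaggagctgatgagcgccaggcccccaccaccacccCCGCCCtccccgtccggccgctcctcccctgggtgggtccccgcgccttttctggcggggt

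The windows differ in what they hold. That of Col20a1 has no match to any of the 5 motifs searched, Col5a3 has 3 GC boxes and 1 CCAAT box, and Col16a1 has 2 GC boxes and 1 CCAAT box. Col8a2 and Col8a1 have 4 GC boxes each, some of them overlapping in Col8a2, and Col23a1 has 1. RefSeq windows were matched for 35 of the 44 genes, 38 windows in all. A GC box was in 23 of these (60.5%) against 35.7% of all 32851 promoter windows of the same length. It was in 5 of the 11 windows of called genes that were higher in glioma and 9 of the 11 windows of those that were lower. Windows are not separate genes, as Col6a2 has 2 overlapping windows, both with a GC box, and Col9a1 has 2 without. Whether the GC box goes with direction was not tested. CCAAT was in 13 of 38 (34.2%, against 37.4% of all windows) and TATAAA in 5 (13.2%, against 13.6%). The AP-1 motif TGANTCA was in 1 window, that of Col6a1 (2.63%, against 7.81%), and the SOX motif AACAAT in 1, that of Col3a1 (2.63%, against 10.7%). All 5 motifs were searched on both strands, and a match describes the letters only.

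Collagen genes moved in both directions. Of 38 tested, 23 were called, which is 60.5% of them. Of all genes tested, 51.4% were called, so the collagen share stands near the background of a comparison in which most genes moved. By class, the called share was 54.5% for fibrillar, 66.7% for FACIT, 40% for type IV and 80% for type VI members. Each of these shares rests on few genes. Higher in glioma were 10 collagens, beside 23.6% of all genes, and 13 were lower, beside 27.8% of all genes. A change of at least 2-fold was reached by 9 of the collagens that rose and by 12 of those that fell. Over all genes such changes made up 35.6%, with 15.5% higher and 20.1% lower. The values of the groups did not overlap in 30 of the 38, against 74.1% of all genes. The median collagen change was -0.40, and that of all genes was -0.05. On the authors' deposited log2 values, used as they are with no array scaling, the split turned to 13 higher and 10 lower, while the median of all genes moved to 0.31 and the collagen median to -0.04. The collagen median also depended on dim genes and single arrays, at 0.17 over genes detected on all 5 arrays, -0.64 with no filter, -0.16 without glioma 1 and -0.08 without normal brain 2.

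Not tested were 6 members, Col4a3, Col6a6, Col10a1, Col13a1, Col17a1 and Col15a1. The first 5 were detected on no array by their brightest probe, and Col15a1 on 1 glioma array. Among the 38 tested, 30 were detected on all 5 arrays. The filter was passed through 1 group alone by Col8a1, detected on both normal brain arrays and no glioma, and by Col28a1, detected on 2 gliomas and no normal brain array. These 2 had to differ to be tested at all.

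**Figure D1:**
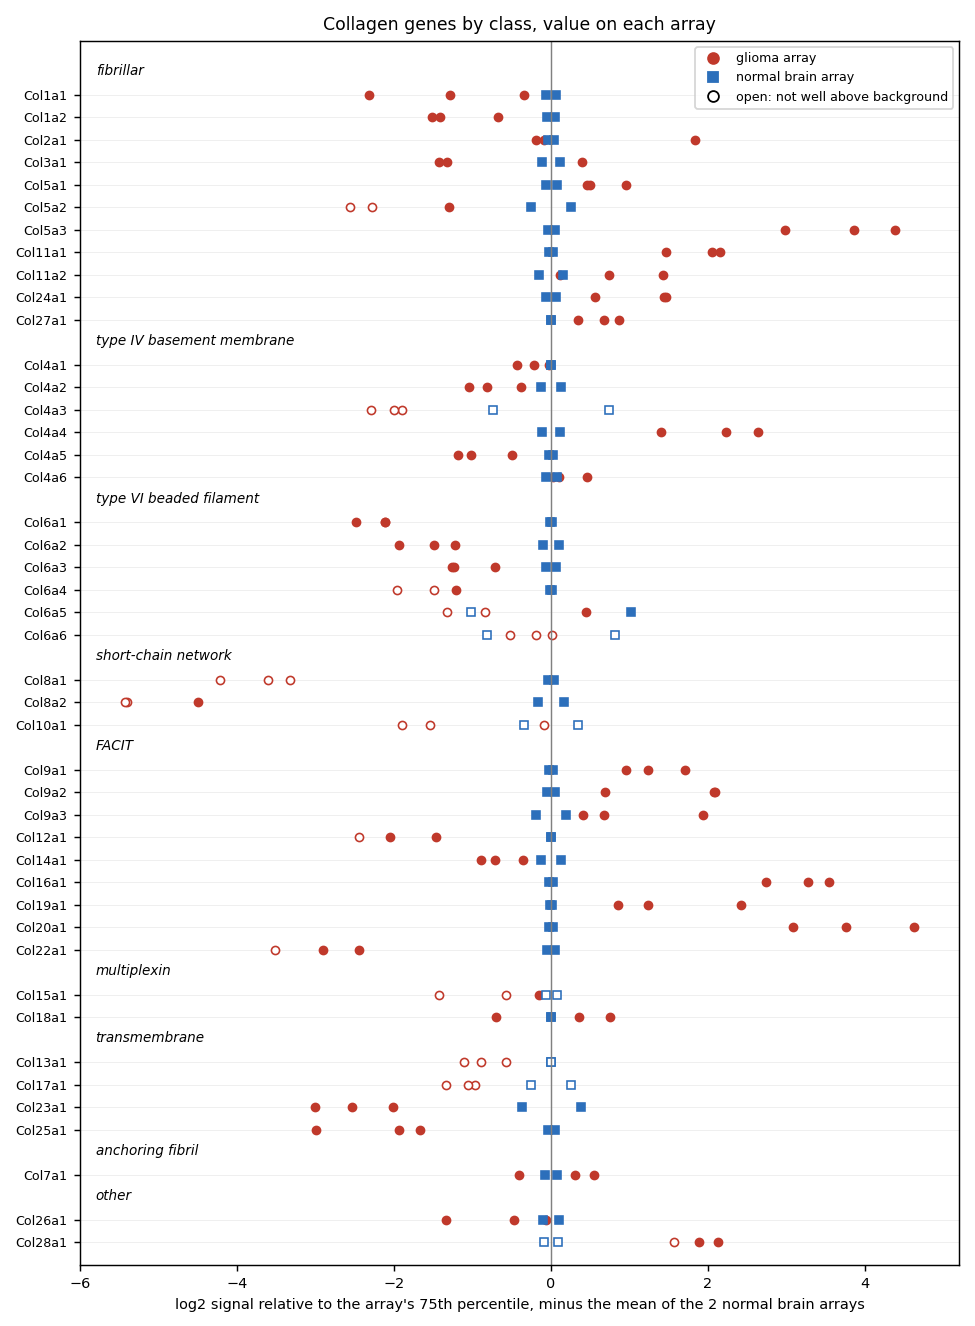
The log2 signal of each of the 44 collagen genes on each array, minus the mean of the 2 normal brain arrays, grouped by class; red circles are gliomas, blue squares are normal brain, and open symbols are not well above background. Col5a3, Col16a1 and Col20a1 lie far to the right in every glioma, whereas Col8a1 and Col8a2 lie far to the left, and all tested type VI genes but Col6a5 lie left of both normal brain arrays.

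Fibrillar collagens went both ways, also within type V, with 4 of 11 called higher, 2 called lower and 5 not passing the test (median change 0.63). Col5a3, the least widespread chain of the type V collagen that sets fibril diameter, rose most. Its values were 2.14, 1.27 and 2.67 in gliomas 1 to 3 and -1.76 and -1.67 in normal brain, in processed signal 3990, 2550 and 5510 against 213 and 233. Every glioma lay far above both normal brain arrays, and the change was 3.74 ± 0.42 (SE), 13.4-fold (limma adjusted p = 0.00185). The other chains of type V did not match that rise. Col5a1, the chain common to most type V molecules, measured -1.30, -1.26 and -0.80 against -1.83 and -1.69, a difference of 0.64 ± 0.21 that did not pass (adjusted p = 0.0505). Every glioma was higher, and Col5a1 passed on the deposited log2 values (1.00, limma adjusted p = 0.0103) and without glioma 3 (0.48, 0.0352). It did not pass without glioma 1 (0.73, 0.0544). Col5a2 fell. Its values were -6.72, -5.45 and -6.44 in glioma, where 1 array detected it, and -3.90 and -4.41 in normal brain (change -2.04 ± 0.43, 4.12-fold lower, adjusted p = 0.0133; 0.0815 without normal brain 1).

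Type XI collagen copolymerises with type II in cartilage and shares chains with type V. Col11a1 rose. Its values were -0.59, -0.69 and -1.28 in glioma against -2.72 and -2.76, with no overlap and a change of 1.88 ± 0.25, 3.69-fold (limma adjusted p = 0.00285). Col11a2 measured -1.05, -1.67 and -0.36 against -1.94 and -1.64, where glioma 2 lay between the normal brain values (0.76 ± 0.40, adjusted p = 0.171). Col2a1, the cartilage fibril gene, was near its normal level in gliomas 1 and 2, at -2.02 and -2.12, and reached -0.10 in glioma 3, against -1.97 and -1.89. The difference of 0.52 ± 0.66 did not pass (adjusted p = 0.543) and turned to -0.14 without glioma 3. The fibril-forming Col24a1, found in developing bone, rose to -0.34, -1.22 and -0.31 from -1.84 and -1.71 (1.16 ± 0.32, 2.23-fold, adjusted p = 0.033). Its relative Col27a1, of cartilage, rose to -2.59, -2.26 and -2.07 from -2.93 and -2.94, which is 1.54-fold (0.63 ± 0.19, adjusted p = 0.0456). The call of Col24a1 was lost without glioma 1 or 3 or either normal brain array (adjusted p up to 0.151), and that of Col27a1 without glioma 2 or 3 or either normal brain array (up to 0.199).

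Type I collagen, the main fibril of skin and bone, is made of Col1a1 and Col1a2 chains. Col1a2 fell from 1.61 and 1.51 in normal brain to 0.04, 0.88 and 0.14 in glioma. No glioma reached the normal level, and the change was -1.21 ± 0.29, 2.31-fold lower (limma adjusted p = 0.0213). Col1a1 had values of -3.69, -1.72 and -2.66 against -1.31 and -1.44, all gliomas lower though spread from -3.69 to -1.72, and its difference of -1.31 ± 0.58 did not pass (adjusted p = 0.113). Without glioma 2, the highest tumour for these genes, Col1a1 was called at -1.80 (adjusted p = 0.0300). Type III collagen, which runs with type I in vessel walls, had the same odd tumour. Col3a1 measured -3.74, -2.02 and -3.84 against -2.53 and -2.29, so that glioma 2 was above normal brain and the others below (-0.79 ± 0.60, adjusted p = 0.317; -1.38 and 0.00702 without glioma 2). The call of Col1a2 was itself lost without glioma 3 (adjusted p = 0.0542) or without normal brain 1 (0.114) or 2 (0.0932).

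Type IV collagen, the network of basement membranes, was the class with the fewest called members among those with over 2 tested, 1 higher and 1 lower of 5. Col4a1 and Col4a2 form the molecule found around every brain vessel and lie head to head on chromosome 8. Col4a1, printed on 10 spots, measured -0.18, 0.04 and 0.23 in glioma and 0.26 and 0.25 in normal brain. The highest glioma lay just under both normal brain arrays, and the difference of -0.22 had a 95% interval of -0.66 to 0.22 (limma adjusted p = 0.326). Col4a2 measured -0.39, -0.16 and 0.27 against 0.78 and 0.52, without overlap, and just failed the test (-0.74 ± 0.24, adjusted p = 0.0511). It passed without glioma 3, at -0.92 (adjusted p = 0.0155). The sign of Col4a1 was positive, 0.14, on the unscaled value table.

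The minor type IV chains make the stiffer networks of kidney, lung and eye. Col4a4, one of them, rose to -0.89, -2.13 and -1.30 from -3.65 and -3.41. All gliomas were well above normal brain, with a change of 2.09 ± 0.39, 4.26-fold (limma adjusted p = 0.00892; 0.0586 without normal brain 1), and 0.99 on a dimmer second probe that no normal brain array detected. Its neighbour on chromosome 1 and partner in the molecule, Col4a3, was detected on no array. On the X chromosome, Col4a5 fell to -3.47, -2.95 and -3.64 from -2.43 and -2.48 (-0.90 ± 0.24, 1.86-fold lower, adjusted p = 0.0289), and its neighbour Col4a6 measured -2.26, -2.69 and -2.62 against -2.65 and -2.79 (0.20 ± 0.18, adjusted p = 0.408). The call of Col4a5 was lost without glioma 1 or 3 and without either normal brain array, with adjusted p up to 0.144, and on the value table (0.205). Glioma 3 is the sample with Xist. The part of this in the X-linked values was not tested.

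Type VI collagen moved 1 way. Of 5 members tested, 4 fell and none rose (median change -1.55), and the 4 that fell did so at least 2-fold. Col6a1, an obligate chain of the molecule, fell from 2.14 and 2.12 to 0.02, 0.02 and -0.36, in processed signal from 3200 and 3240 to 921, 1070 and 672. The gap between the groups far exceeded the spread within them, and the change of -2.24 ± 0.18 was 4.72-fold (limma adjusted p = 0.000743). Col6a2, its neighbour on chromosome 10, fell to -3.07, -2.80 and -3.52 from -1.48 and -1.68 (-1.55 ± 0.25, 2.93-fold lower, adjusted p = 0.00564). Col6a3, the large chain that completes the molecule, fell to -3.54, -3.02 and -3.56 from -2.24 and -2.36 (-1.08 ± 0.22, 2.11-fold lower, adjusted p = 0.012; 0.0878 without normal brain 1 and 0.0691 without normal brain 2). Each glioma was below each normal brain sample for all of these chains.

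Col6a4, Col6a5 and Col6a6 lie in a row on chromosome 9 and encode alternatives to Col6a3. They were dim. Col6a4 fell to -5.90, -6.37 and -5.62, detected in 1 glioma, from -4.42 and -4.40 (-1.55 ± 0.25, 2.92-fold lower, limma adjusted p = 0.00579). Col6a5 was detected on 1 glioma and 1 normal brain array, with values from -6.42 to -4.65 in glioma and of -6.12 and -4.08 in normal brain, and the groups overlapped (-0.57 ± 0.79, adjusted p = 0.575).

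Both short-chain collagens that could be tested fell, from levels measured in normal brain to signals at or near background in glioma. Type VIII collagen forms hexagonal lattices under the corneal endothelium and in vessel walls, and its chains are Col8a1 and Col8a2. Col8a2 fell from -0.80 and -0.46 in normal brain to -6.03, -5.13 and -6.05 in glioma, in processed signal from 416 and 539 to 13.9, 30.0 and 13.0. Only glioma 2 was well above background, and the change was -5.11 ± 0.34, 34.5-fold (limma adjusted p = 0.000532). A second Col8a2 probe, detected on all arrays, gave -5.26, -5.21 and -4.52 against -4.40 and -4.14. It went the same way by far less, -0.73 ± 0.28, and did not pass (adjusted p = 0.0786), so the size of the Col8a2 change rests on 1 probe. Col8a1 was at -3.68 and -3.60 in normal brain and was not detected in any glioma, where its signals read -7.24, -6.96 and -7.86. Set against each glioma array's lowest detected signal, it was at least 5.35-fold lower. The measured difference, with an adjusted p of 0.000709, was -3.71. With normexp background correction, which adds an offset of 50, the changes shrank to -3.16 for Col8a2 and -1.11 for Col8a1 and both stayed called. The mean of both Col8a2 probes gave -2.92.

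FACITs sit on the surface of fibrils and link them to other matrix. Of 9 tested, 4 rose, 2 fell and 3 did not pass (median change 1.30), and the groups did not overlap in any of the 9. Col20a1, a FACIT whose function is little studied, rose most of all collagens. Its values were 0.73, 1.60 and 0.06 in glioma against -3.05 and -2.99, in processed signal 1500, 3190 and 903 against 87.5 and 93.7. The gliomas differed among themselves, yet even the lowest lay far above normal brain, and the change was 3.81 ± 0.46, 14.1-fold (limma adjusted p = 0.00223). A second probe gave 3.57 ± 0.48. Col16a1, of skin and cartilage fibrils, rose to 5.71, 5.44 and 4.90 from 2.19 and 2.14, in processed signal to 47600, 45900 and 25800 from 3310 and 3280. All its 3 probes rose, by 3.18, 3.17 and 2.87, and the brightest by 9.09-fold (3.18 ± 0.27, adjusted p = 0.000847).

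Type IX collagen coats type II fibrils in cartilage and has chains from Col9a1, Col9a2 and Col9a3. Col9a1 rose to -2.57, -2.30 and -1.82 from -3.50 and -3.56 (1.30 ± 0.25, 2.46-fold, limma adjusted p = 0.0101), while a dimmer second probe gave nearly the same level in both groups (-0.01 ± 0.23, adjusted p = 0.987). Col9a2 rose to 2.97, 1.58 and 2.98 from 0.94 and 0.84 (1.62 ± 0.48, 3.08-fold, adjusted p = 0.0387). Both calls were lost without either normal brain array, at adjusted p up to 0.0689 for Col9a1 and 0.149 for Col9a2, and that of Col9a2 also without glioma 1 or 3. Col9a3 measured -1.87, -3.13 and -3.39 against -3.61 and -3.99, higher in every glioma but mostly in glioma 1, and did not pass (1.00 ± 0.49, adjusted p = 0.146). Col19a1, next to Col9a1 on chromosome 1 and made by interneurons in mouse brain, was higher in all gliomas, at -3.40, -3.02 and -1.83 against -4.24 and -4.27, and just missed the threshold (1.51 ± 0.49, adjusted p = 0.0504).

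The FACITs that fell are those of tendon and tissue borders. Col22a1, of muscle-tendon junctions, fell to -5.12, -4.66 and -5.73 from -2.16 and -2.26 (-2.96 ± 0.33, 7.78-fold lower, limma adjusted p = 0.0018). Col12a1, of tendon and fascia, fell to -5.41, -4.43 and -5.02 from -2.97 and -2.96 (-1.99 ± 0.31, 3.96-fold lower, adjusted p = 0.00502). For each of them 2 of 3 gliomas were above background, and all lay well below normal brain. Col14a1, closely related to Col12a1, measured -4.72, -4.54 and -4.18 against -3.70 and -3.95 and did not pass (-0.65 ± 0.21, adjusted p = 0.0523).

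Both transmembrane collagens that could be tested fell. Col25a1 is made by neurons and its shed part is found in amyloid plaques. It fell to -2.46, -2.20 and -3.52 from -0.48 and -0.57 (-2.21 ± 0.42, 4.61-fold lower, limma adjusted p = 0.00984; 0.0581 without normal brain 1 and 0.0529 without normal brain 2). All 4 Col25a1 probes fell, with changes of -2.21, -4.09, -1.67 and -4.03, and no glioma array detected the last of them. Col23a1 fell to -4.50, -3.98 and -4.97 from -1.59 and -2.34. The groups were far apart, at 5.74-fold (-2.52 ± 0.38, adjusted p = 0.00439), and its other probes fell too, with changes of -2.56 and -1.74.

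Among the remaining members, Col18a1, the basement membrane collagen that yields endostatin, was mixed, at -1.43, 0.02 and -0.37 in glioma around the -0.73 and -0.72 of normal brain (0.13 ± 0.44, limma adjusted p = 0.824), and turned to -0.18 without glioma 2. Col7a1, of the anchoring fibrils of skin, measured -1.26, -0.55 and -0.30 against -0.77 and -0.93 (0.15 ± 0.31, adjusted p = 0.721). Col26a1, a small secreted collagen, measured -1.54, -0.68 and -0.27 against -0.10 and -0.31 (-0.62 ± 0.40, adjusted p = 0.241). In all of them some glioma lay among or beyond the normal brain values. Col28a1, a beaded-filament collagen of peripheral nerve, was called higher at signals close to background. It read -5.11, -5.35 and -5.67 in glioma, 2 of them detected, and -7.32 and -7.14 in normal brain, neither detected. No bound is given, since glioma 3 did not detect it. The measured difference, which rests on signals at or near background, was 1.85 (limma adjusted p = 0.00187). With normexp correction its call was lost (0.05, adjusted p = 0.754).

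Chains of the same molecule were also set against each other within each array, where scaling cancels. With 3 against 2 arrays the smallest p of an exact test is 0.1, so these contrasts are given by overlap. Single genes did not overlap in 74.1% of all genes, and the share over pairs of genes was not taken. Lack of overlap is thus common and is given as description only. The gap between Col5a1 and Col5a3 shifted by -3.10 and that between Col5a1 and Col5a2 by 2.69, both without overlap of the groups. The measured changes of the 3 type V chains were thus unequal in these samples. Col6a1 shifted against Col6a2 by -0.69 and against Col6a3 by -1.16, again without overlap. Col4a1 shifted against Col4a2 by 0.52 and Col4a5 against Col4a6 by -1.10. The groups did not overlap there either, though the exact test for Col4a5 against Col4a6 gave p = 0.2. Type VIII is left out of this contrast, since Col8a1 was detected in no glioma and the brightest Col8a2 probe in 1. Col5a2 too was detected in only 1 glioma, so shifts against it rest on signals near background. They did overlap for Col1a1 against Col1a2 (-0.11), Col9a1 against Col9a2 (-0.32), Col9a2 against Col9a3 (0.62) and Col11a1 against Col11a2 (1.12). The neighbours Col3a1 and Col5a2, which share chromosome 1 but no molecule, shifted by 1.25 without overlap.

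**Figure D2:**
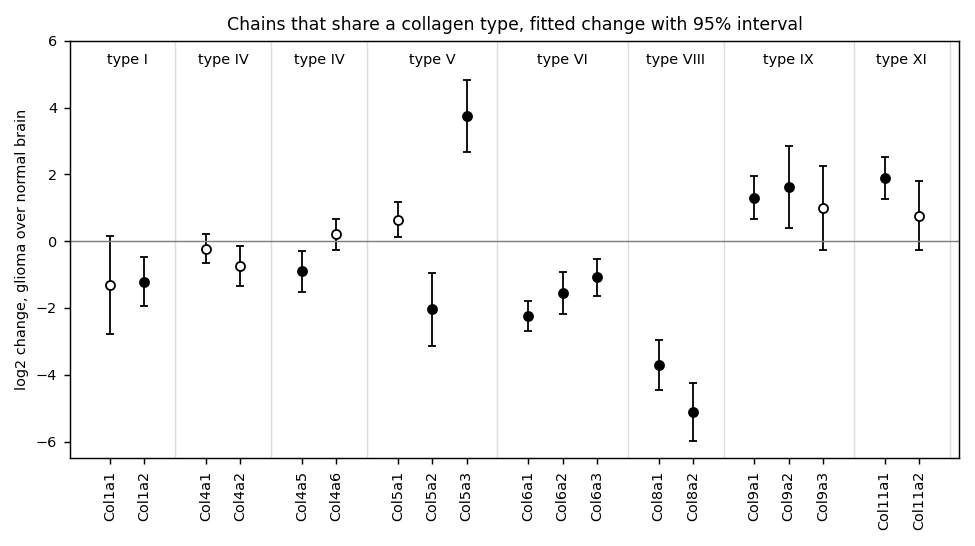
The log2 change of glioma over normal brain with its 95% interval for chains of the same collagen type; filled points passed limma's adjusted threshold and open points did not. Within type V, Col5a3 stands at 3.74 and Col5a2 at -2.04, while all type VI and type VIII chains shown lie below 0 and all type IX and XI chains above it.

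Probes of a gene mostly agreed in sign. Of 10 collagen genes with more than 1 detected probe, 7 had the same sign on all of them. The exceptions were Col9a1 (1.30 and -0.01), Col4a6 (0.20 and -0.53) and Col18a1 (0.13 and -0.31). Probes of a gene share its RNA and are not replicates.

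**Figure D3:**
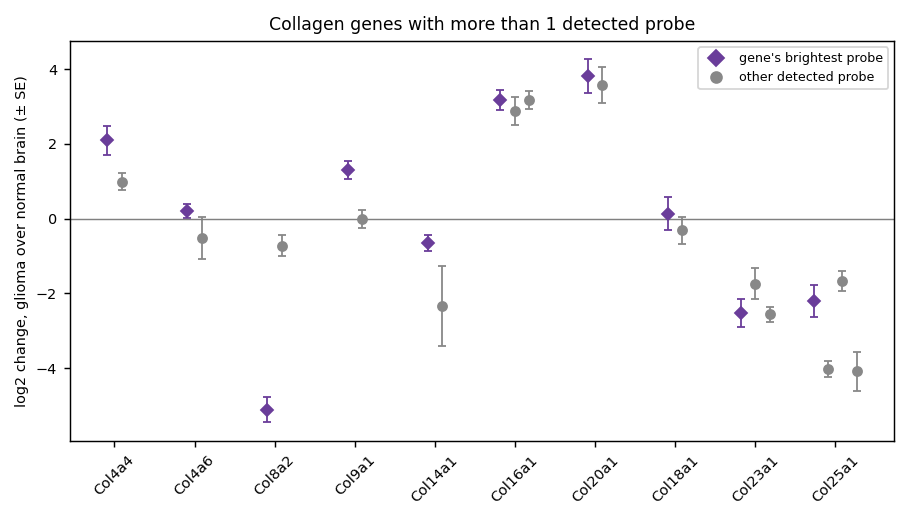
The log2 change of glioma over normal brain, with its SE, for each detected probe of the 10 collagen genes with more than 1; the purple diamond is the brightest probe, which represents the gene. The probes of Col16a1, Col20a1, Col23a1 and Col25a1 lie together on 1 side of 0, and those of Col8a2 stand at -5.11 and -0.73.

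The machinery that makes, binds and removes collagen was read from 5 lists. Of their tested genes, 60.9% were called for folding and modification, 54.5% for trimming and crosslinking and 55.6% for receptors. For matrix partners the share was 53.3%, and for degradation 100%, against 51.4% of all genes. All but the degradation list thus stand near the background share. That list had only 8 tested genes, among them Mmp9 and Mmp16, which had to differ to be tested. With normexp correction 3 of its genes were called higher and 3 lower. Of 23 genes for folding and modification, 10 rose and 4 fell (median change 0.60). Plod2, a lysyl hydroxylase, rose by 1.67 ± 0.17 (limma adjusted p = 0.00132) and P3h2, a prolyl 3-hydroxylase, by 1.95 ± 0.29 (adjusted p = 0.00432). P4ha2, a catalytic prolyl 4-hydroxylase subunit, fell by 2.81 ± 0.20 (adjusted p = 0.000599). P3h1 fell on its brightest probe by 3.00, while its other probe gave 1.38, so its direction is uncertain. The collagen chaperone Serpinh1 (-1.46) and P4ha1 (-1.57) fell as well, and the peptidyl-prolyl isomerase Ppib (1.37; adjusted p = 0.0688 without normal brain 1 and 0.0638 without normal brain 2) and its partner Crtap (1.52) rose.

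Of 11 tested genes of procollagen trimming and crosslinking, 3 rose and 3 fell (median change 0.16), but 5 rose and 2 fell on the unscaled value table (median 0.51). Adamts14, which removes the amino-terminal propeptide, rose by 3.78 ± 0.31 (limma adjusted p = 0.00081), and 1.44 on its other probe, while its relative Adamts2 fell by 1.83 ± 0.22 (adjusted p = 0.00213). Pcolce, an enhancer of carboxy-terminal trimming, fell by 2.72 ± 0.28 (adjusted p = 0.0014). The crosslinking oxidase Lox was detected in all gliomas and in neither normal brain sample and was at least 2.34-fold higher, though its call was lost with normexp correction (adjusted p = 0.0917) and without normal brain 2 (0.0885). Its relative Loxl3 rose by 1.61 ± 0.29 (adjusted p = 0.00789; 0.0507 without normal brain 1 and 0.0539 without normal brain 2).

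Of 9 tested collagen receptors, 4 rose and 1 fell (median change 0.77). Ddr2 and Ddr1, receptor tyrosine kinases that bind collagen, rose by 2.91 ± 0.30 and 1.69 ± 0.14 (limma adjusted p = 0.00139 and 0.000822). The integrin chain Itgb1 (1.52) and the adhesion receptor Adgrg1 (1.47) rose too, and the integrin chain Itga11 fell by 1.41 ± 0.25 (adjusted p = 0.00797; 0.0602 without normal brain 1). Itga10 was not matched to a probe. Of 8 tested genes of collagen degradation, 5 rose and 3 fell (median change 1.41). The gelatinase Mmp2 rose by 3.28 ± 0.37 (adjusted p = 0.00185) and its membrane-bound activator Mmp14 by 2.12 ± 0.21 (adjusted p = 0.00117). Mmp16, detected in all gliomas and neither normal brain sample, was at least 4.29-fold higher. Mmp9, detected in both normal brain samples and no glioma, was at least 2.01-fold lower. Both, like Lox above, passed the filter through 1 group alone and had to differ to be tested at all. The inhibitor Timp1 rose by 2.17 ± 0.67 (adjusted p = 0.0437) and Timp3 fell by 1.11 ± 0.15 (adjusted p = 0.00317). Timp2, the third that fell, is of uncertain direction, at -0.69 on its brightest probe and 1.03 on the other, with 0.17 for their mean (adjusted p = 0.61). The calls of Timp1 and Mmp16 were lost with normexp correction (adjusted p = 0.0588 and 0.103), that of Timp1 also without glioma 1 or either normal brain array, and that of Mmp16 without any 1 of the gliomas or normal brain 1.

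Of 15 matrix partners that bind collagen, 8 fell and none rose (median change -1.05), but 6 fell and 1 rose on the unscaled value table. Ogn and Lum, small leucine-rich proteoglycans that coat fibrils, fell most, with changes of -4.25 ± 0.45 and -3.39 ± 0.17 (limma adjusted p = 0.0015 and 0.000389). Dcn (-2.82) and Fmod (-2.63) belong to the same family and fell too, while its member Bgn measured -1.67, -1.66 and -1.65 in glioma against -1.67 and -1.58 (-0.03 ± 0.13, adjusted p = 0.838). Sparc, called at -0.54, had other probes from -2.40 to 0.78, so its direction is uncertain. Ogn, Lum, Dcn and Fmod are also in the fibroblast list below.

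**Figure D4:**
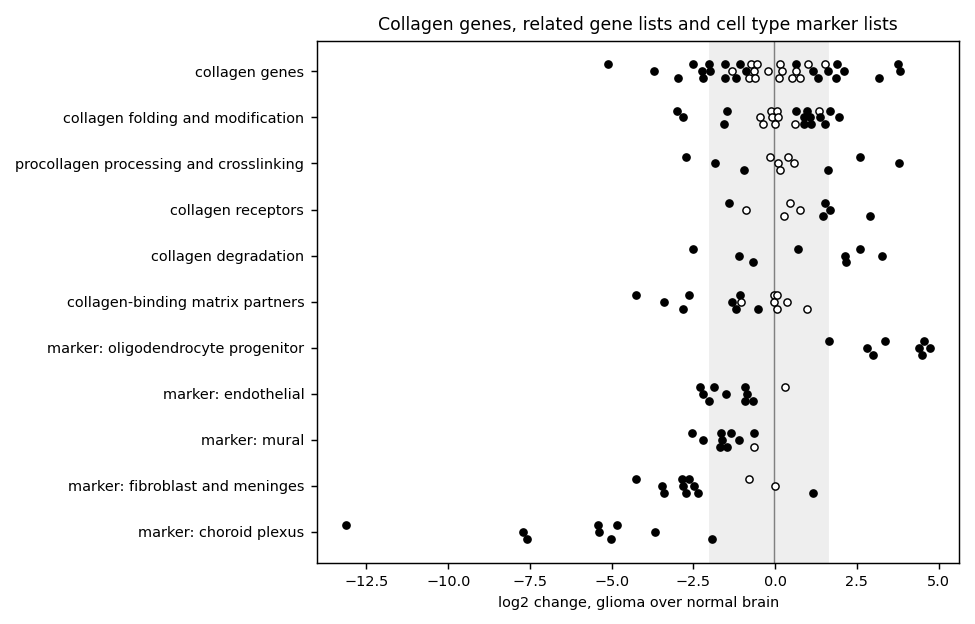
The log2 change of glioma over normal brain for each tested gene of the collagens, of 5 related lists and of 5 cell type marker lists; filled points passed limma's adjusted threshold, open points did not, and the grey band spans the 10th to the 90th percentile of all genes. Collagens spread to both sides of the band, whereas all choroid plexus markers and most fibroblast and meninges markers lie below 0 and all oligodendrocyte progenitor markers above it.

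Markers of fibroblast, vessel and choroid plexus cells mostly fell. Of 12 fibroblast and meninges markers, 9 fell and 1, Aebp1, rose (median change -2.68). Their summed signal was 39.6 to 54.6 times the array's 75th percentile in glioma against 235 to 256 in normal brain. Ptgds alone, with log2 means of 5.09 in glioma and 7.83 in normal brain, made up most of these sums. Of 10 mural markers, 9 fell (median -1.56; summed 7.09 to 8.93 against 23.6 to 25.1), and of 10 endothelial markers, 9 fell (median -1.21; summed 12.2 to 15.6 against 24.7 to 27.5). On the deposited log2 values, 7 mural and 6 endothelial markers were called lower. All 9 choroid plexus markers fell (median -5.40, summed 29.2 to 30.4 against 358 to 371). Enpp2, with a log2 mean of 4.87 in glioma, made up nearly all of the glioma sum. It changed least of them (-1.92), while Ttr, the brightest in normal brain, changed by -13.12. Col1a2, most tested type VI genes, Col8a1, Col8a2 and Col12a1 were called lower too. Other collagens of vessels and fibrils were not called, among them Col1a1 (-1.31), Col3a1 (-0.79), Col4a1 (-0.22), Col4a2 (-0.74) and Col18a1 (0.13). The part of these cell types in the collagen values was not tested.

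On the other side, all 8 oligodendrocyte progenitor markers rose (median change 3.88), with a summed signal of 395 to 447 in glioma against 46.4 to 47.2. Their part in the rises of Col5a3, Col16a1, Col20a1 and Col9a2 was not tested. All 10 neuron markers fell (median -3.31; 37.8 to 60.0 against 387 to 393), as the neuronal Col25a1 did, and 6 of 8 mature oligodendrocyte markers fell (median -2.50), with sums from 51.4 to 332 in glioma against 319 to 345. Of 8 astrocyte markers 2 fell (median -0.43; 204 to 344 against 351 to 359). Of 8 microglia markers 5 rose (median 1.35; 76.6 to 170 against 90.1 to 93.6). Without glioma 1, the calls of Aif1, Tyrobp and Cd68 were lost (limma adjusted p = 0.0902, 0.0948 and 0.07). Those of C1qa and Ptprc were kept there. The call of C1qa was lost without normal brain 2 (change 1.92), and that of Ptprc without normal brain 1 (1.36) or 2 (1.09). Aif1, Tyrobp and Cd68 also lost their calls without either normal brain array. Itgam alone was called lower (-1.83 ± 0.56, limma adjusted p = 0.0439), but its probes ranged from -1.83 to 0.45, and the call was lost with quantile normalization (adjusted p = 0.0501), on the deposited log2 values (0.0784) and with the probe mean (0.204). No marker of these 9 lists was below background on all arrays of a group. The tissue labelled glioma thus held progenitor, neuronal and glial transcripts, and the tissue labelled normal brain held them too.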

How the data were processed

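Spot intensity values were deposited by the authors, who ran version 10.7.3.1 of Agilent Feature Extraction (per the submitters' processing notes). Background was subtracted with spatial detrending, per the file headers, and flags of 0 or 1 mark spots well above background, saturated or outlying. A second deposited table gives log2 values, which equalled the log2 processed signal on all 5 arrays (median difference 0, correlation 1). Signals were put on the log2 scale and lowered by the 75th percentile of their array. Repeated spots were averaged and 23 outlier probes left out. Probes were named through RefSeq accessions. The comparison used R 4.3.3 and two-sided tests of limma 3.58.1 (eBayes after lmFit), adjusted by Benjamini-Hochberg over 16891 genes, with version 1.17.8 of data.table, and Python 3.11.15, pandas 2.3.3 and matplotlib 3.10.9. The fit was tested on simulated data. A fold with a dim group is a lower bound against each array's lowest signal well above background. It is approximate, and no bound is given for partly detected genes.

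Every collagen was accounted for. Values on every array were required for called members changed at least 2-fold, members with a bound and their chain partners, and the 2 largest called changes in each direction were required of each related list. Beyond that rule, the remaining collagens and the genes Serpinh1, P4ha1, Ppib, Crtap, Timp1, Timp2, Mmp14, Bgn, Sparc, Itgam, Dcn, Fmod, Itgb1, Adgrg1, Loxl3 and Aebp1 were named after their values were seen. The members and lists were chosen with earlier results of these data known. Alternatives covered background correction (normexp with offset 50, on median spot signals), scaling, source of values, filter, choice of probe, a replicate block and leaving out each array. Same-numbered deviations from the group means correlated at 0.01 and 0.05, which gave no sign of pairing by replicate number. With 2 normal brain arrays, whose deviations mirror each other, this check cannot exclude pairing.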

Additional observations from a re-analysis of the deposited data

How the results depend on the processing

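Of the 23 collagen calls, 12 were kept in every alternative that gave a value: Col5a3, Col11a1, Col6a1, Col6a2, Col6a4, Col8a1, Col8a2, Col12a1, Col16a1, Col20a1, Col22a1 and Col23a1. Leaving out each array gave 13 to 24 collagen calls, 5 to 9 higher and 8 to 15 lower, and over all genes 4630 to 9325, with 1973 to 4333 higher and 2626 to 4992 lower. The lowest counts came without normal brain 1 (13 collagens) and without normal brain 2 (15), where the lone array was assumed to vary like the gliomas. With replicate number as a block, 21 collagens were called, 9 higher and 12 lower, and 8263 genes in all. Of the 23 reported calls, 17 were kept there, and Col1a2, Col5a2, Col24a1, Col27a1, Col4a5 and Col9a2 were lost. Col4a2, Col9a3, Col14a1 and Col19a1 came in. With the array median as scaling, and over genes detected on all arrays, Col5a1, Col4a2, Col14a1 and Col19a1 were called as well. Each probe on its own gave 33 called collagen probes. The value table lost Col1a2 (-0.85, adjusted p = 0.106), Col4a5 (-0.54, 0.205) and Col6a3 (-0.72, 0.0916). Normexp lost Col27a1 (0.31, 0.129) and Col28a1 (0.05, 0.754), and no filter lost Col27a1 (0.0544). The share of collagen calls that were higher was 43.5% as reported, 56.5% on the value table and 55% over genes detected on all arrays. Signs turned for Col4a1 on the value table (0.14), for Col18a1 (-0.09) and Col4a6 (-0.17) with the mean of a gene's probes, for Col2a1 (-0.14) and Col7a1 (-0.06) with the block, and when single arrays were left out, over which Col2a1 ranged from -0.14 to 0.87, Col7a1 from -0.06 to 0.42, Col18a1 from -0.18 to 0.55 and Col6a5 from -1.59 to 0.45. None of these 6 genes was called. The causes were not tested. A slide block was not run because all arrays lie on 1 slide.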
